A study of Mus musculus with 16 samples.

Results

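The RIG-I-like receptor pathway was followed in mouse bone marrow-derived dendritic cells (BMDCs) through 6 of the 23356 genes in the deposited expression table. The genes were taken by symbol: the receptors Ddx58, Ifih1 and Dhx58, the adaptor Mavs, and the ubiquitin ligases Trim25 and Rnf135. Each symbol had a single entry, and all 6 genes passed the filter on low values (at least 1 FPKM in a compared condition) in all 11 comparisons.

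RIG-I-like receptors are RNA helicases that sense viral RNA in the cytosol. RIG-I (Ddx58) and MDA5 (Ifih1) carry the domains that pass the signal to MAVS on the mitochondrial surface, while LGP2 (Dhx58) lacks these domains and modulates the other receptors. TRIM25 and RIPLET (Rnf135) attach ubiquitin chains that activate RIG-I, and MAVS then engages TBK1, IRF3, IRF7 and NF-κB to switch on type I interferons, which in turn raise the expression of the receptors themselves.

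The ligand used here does not enter this pathway directly. Cyclic di-guanylate monophosphate (c-di-GMP) is a bacterial second messenger that binds STING, the product of Tmem173, and the study asked which interferon regulatory factors act below STING in dendritic cells. RNA-seq was run on BMDCs grown for 6 days with GM-CSF and IL-4 at 10 ng/ml each, then kept for 18 h without c-di-GMP (NT) or with it at 25 µg/ml (CDG) per the labels; a figure legend of the study gives another dose. The cells came from 4 genotypes, all on the C57BL/6 background: wild-type (WT), Tmem173-/-, Irf1-/- and the double knockout Irf3/7-/-. There were 2 libraries in each of the 8 conditions, 16 in all.

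The knockouts were conventional ones, carried by every cell of a culture, and the study's methods credit the Irf1-/- mice to more than one source. The mice were sex-matched young adults, and the labels do not say whether the libraries of a condition came from separate animals. The deposited table held 1 value per condition, pooled over its libraries, with the lower and upper bound of an interval, so no spread between replicates could be seen and no SD is given. Values are FPKM, in which the fragments of a gene are divided by transcript length and by the mapped total of the library, so that levels can be set side by side between genes. The number of reads behind a value was not given. Over the 4723 genes at 10 FPKM or more in all 8 conditions, the median interval half-width was 25.2% to 25.7% of the value.

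The targeted genes were read first as a check of the labels. Tmem173 was at 103 and 118 FPKM in untreated and treated WT cells and at 8.97 and 7.49 in Tmem173-/- cells. Irf1 was at 149 and 245 FPKM in WT cells and at 25.9 and 116 in Irf1-/- cells, so the treated knockout was 2.12-fold below WT and the gene rose 4.45-fold in it. Tmem173-/- cells held 24.1 and 23.3 FPKM of Irf1, so its RNA level alone does not single out the Irf1-/- label. Irf7 was at 15.2 and 687 FPKM in WT cells and at 1.07 and 4.97 in the cells labelled Irf3/7-/-. Irf3 was lower only in the untreated cells with that label, at 7.74 FPKM against 20.0 in untreated WT cells. After treatment Irf3 was at 20.2 FPKM in the cells labelled Irf3/7-/- and 15.8 in WT cells, so the RNA level of Irf3 does not bear out that label for the treated pool, and a gene-level FPKM does not show which exons are missing.

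Markers showed that the cultures held more than dendritic cells. Of 10 dendritic cell markers 8 to 10 were at 1 FPKM or more in every condition, among them Itgax, which encodes CD11c, at 135 to 369 FPKM; Ccl22 was listed at 0 in the treated WT, Irf1-/- and Irf3/7-/- cells, and Cd209a in the treated WT cells. The summed level of 9 T and NK cell markers was 465 and 412 FPKM in untreated and treated WT cells and 489 and 1212 in the cells labelled Irf3/7-/-, but only 14.5 and 15.4 in Irf1-/- cells and 3.29 and 2.72 in Tmem173-/- cells, where Gzma was listed at 0. Gzma alone was at 349 and 329 FPKM in WT cells and 315 and 900 in the cells labelled Irf3/7-/-. It made up most of those sums. Cd3e was at 9.18 and 5.41 FPKM in WT cells and 14.3 and 23.3 in the cells labelled Irf3/7-/-. In Irf1-/- cells Cd3e was at 0.641 and 0.479 FPKM, and in Tmem173-/- cells at 0.0701 and 0.0103. The sum of 7 neutrophil markers ran the other way for Tmem173-/-, at 20003 and 14533 FPKM against 4015 and 1905 in WT cells. The sum of 8 macrophage markers was 406 and 390 FPKM in Tmem173-/- and 86.2 and 88.7 in Irf1-/- cells, against 195 and 162 in WT cells. Basophil and mast cell markers, 6 in all, summed to 169 and 260 FPKM in the cells labelled Irf3/7-/- and to 69.6 and 84.0 in WT cells. In such bulk samples, fewer cells of a type and less RNA per cell cannot be told apart, and the part of these cells in the results below was not tested.

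Promoter sequence was available for 5 of the 6 members in the RefSeq table of assembly GRCm38.p6, which runs from 250 bases before to 50 bases after each gene's start. Because 5 members rose together, these sequences were searched on both strands for the core of the interferon-stimulated response element, which is GAAA, any pair of bases and GAAA again. The core occurred in 2 of the 5 promoters, Ifih1 and Ddx58, in 3.44% of all 32851 promoters of the same length, and in 6 of the 10 promoters available for a reference list of interferon-induced genes. Windows of 30 bases around it are shown 5′ to 3′ along the strand of the gene, with the match in capitals; in Ddx58 the match lies on the opposite strand and is printed as its reverse complement.
Ifih1, chr2:62646206-62646235, minus strand, match 33 to 42 bases into the transcript: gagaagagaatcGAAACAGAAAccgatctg
Ddx58, chr4:40239804-40239833, minus strand, match 3 to 12 bases into the transcript: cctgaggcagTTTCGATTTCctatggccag

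A form shorter by its last base, GAAANNGAA with N for any base, is contained in the core and was found in 3 of the 5 promoters, with Trim25 added, and in 8.56% of all promoters. Ifih1 held a second match to it, 112 to 104 bases before the start. The 100 bases before the start are shown for Trim25, with its match in capitals at bases 9 to 1 before the start. They are also shown for Rnf135, which rose without either form, and for Mavs, whose change could not be resolved.
Trim25, chr11:88999303-88999402, plus strand: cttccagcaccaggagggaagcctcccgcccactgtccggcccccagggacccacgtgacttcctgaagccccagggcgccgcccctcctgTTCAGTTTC
Rnf135, chr11:80183769-80183868, plus strand: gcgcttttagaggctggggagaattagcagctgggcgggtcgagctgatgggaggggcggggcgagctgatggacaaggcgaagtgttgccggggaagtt
Mavs, chr2:131233963-131234062, plus strand: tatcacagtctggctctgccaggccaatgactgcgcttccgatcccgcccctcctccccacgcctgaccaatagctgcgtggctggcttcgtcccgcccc
A match is a description of letters and not evidence that a factor binds there, and the lack of one says only that these letters are not in this window.

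The first comparison asked which members respond to c-di-GMP in WT cells. All 3 receptors and both ubiquitin ligases rose, by 3.82-fold to 9.16-fold. For Mavs a 2-fold change in either direction could not be resolved. Calls needed a change above 2-fold on the log2(FPKM + 0.1) scale and deposited intervals that did not overlap; by this rule 5 of 6 members were called higher, against 10.5% of the 11201 genes tested. The median log2 change was 2.16 over the 6 members and 0.0033 over all genes tested. As these members include genes known to answer to interferon, the count describes them and is no test of the list.

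Ddx58 (RIG-I; chr4:40203776-40239825) was at 14.3 FPKM in untreated WT cells, with an interval of 11.0 to 17.6, and at 61.6 (47.5 to 75.6) after c-di-GMP. The log2 change was 2.10, with an interval of 1.64 to 2.56 propagated from those of the FPKM. In Tmem173-/- cells it was at 5.12 FPKM untreated and 6.13 treated. RIG-I recognises short RNA with a triphosphate at its end, and its value was the highest of the receptors in untreated WT cells, with an interval that overlapped that of Dhx58. In Irf1-/- cells the level went from 5.11 to 59.2 FPKM, and in the cells labelled Irf3/7-/- from 8.60 to 50.2. The treated levels of WT, Irf1-/- and Irf3/7-/- cells had overlapping intervals and stood apart from the other 5 conditions, among which untreated WT was highest and also stood apart.

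Ifih1 (MDA5; chr2:62595792-62646255) had the largest rise of the members in WT cells. It went from 7.52 FPKM (5.80 to 9.24) to 69.7 (52.0 to 87.6), a log2 change of 3.20 with an interval of 2.71 to 3.69. MDA5 recognises long double-stranded RNA. Tmem173-/- cells held 3.26 FPKM untreated and 4.18 treated, and Irf1-/- cells 4.13 and 73.1. The cells labelled Irf3/7-/- held 5.33 FPKM untreated and 40.5 (30.7 to 50.3) treated. This treated level was below the intervals of treated WT and Irf1-/- cells and above that of untreated WT cells. The remaining conditions overlapped in neighbouring order, but untreated WT stood apart from untreated Irf1-/- cells and from Tmem173-/- cells, untreated or treated.

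Dhx58 (LGP2; chr11:100694883-100704271) rose from 12.6 FPKM (9.56 to 15.6) to 87.2 (66.9 to 107) in WT cells, a log2 change of 2.78 (2.30 to 3.26). LGP2 binds RNA ends and affects signalling by both other receptors. It was at 4.91 and 4.39 FPKM in untreated and treated Tmem173-/- cells, at 6.47 and 103 in Irf1-/- cells, and at 6.37 and 82.7 in the cells labelled Irf3/7-/-. The 3 treated levels outside Tmem173-/- overlapped, and untreated WT stood above the remaining conditions. An antisense gene, Dhx58os, overlaps Dhx58 in GENCODE M21; the libraries were made with a stranded kit, but whether strand was used for the deposited values is not stated.

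Mavs, the adaptor that all signals from RIG-I and MDA5 pass through, stayed between 9.49 and 12.5 FPKM in the 8 conditions, and all 8 intervals overlapped. Its log2 change with c-di-GMP in WT cells was -0.11, with an interval of -1.55 to 1.33, so a change of 2-fold in either direction could not be seen for this gene. The half-width of its interval was 63.6% to 86.7% of the value, against 22.4% to 33.5% for the other members. In the table Mavs was assigned a locus of 477 kb (chr2:131127411-131604824) that it shared with 12 other genes, while the GENCODE M21 gene spans chr2:131234063-131248025. Expressed genes of that locus also had wide intervals. Their half-widths were 35.3% to 52.3% for Cenpb, the narrowest, 48.7% to 68.0% for Pank2, and 106% to 137% for Ap5s1, the widest.

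Trim25 (chr11:88999402-89020293) had the highest FPKM of the members in all conditions but 1, the treated cells labelled Irf3/7-/-, where Dhx58 was above it. It rose from 26.0 FPKM (20.0 to 31.9) to 121 (92.7 to 149) in WT cells, a log2 change of 2.21 (1.74 to 2.68). It was at 14.8 and 17.6 FPKM in untreated and treated Tmem173-/- cells, 21.1 and 118 in Irf1-/- cells, and 19.1 and 77.6 in the cells labelled Irf3/7-/-. TRIM25 was the first ligase described to ubiquitinate the signalling domains of RIG-I. Its treated levels in the 3 responding genotypes overlapped in neighbouring order, and all stood apart from the untreated levels.

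Rnf135 (RIPLET; chr11:80183871-80199753) ubiquitinates RIG-I bound to RNA. It rose from 5.60 FPKM (4.14 to 7.06) to 21.7 (16.6 to 26.8) in WT cells, a log2 change of 1.93 (1.43 to 2.43). Its untreated levels were within 5.00 to 5.89 FPKM in all 4 genotypes, with overlapping intervals, unlike those of the receptors. Treated Tmem173-/- cells held 5.51 FPKM, against 14.2 (10.8 to 17.6) in treated Irf1-/- cells and 11.9 (8.99 to 14.7) in the cells labelled Irf3/7-/-. The treated WT level was the highest, and its interval overlapped that of Irf1-/- cells but not that of Irf3/7-/- cells.

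**Figure D1:**
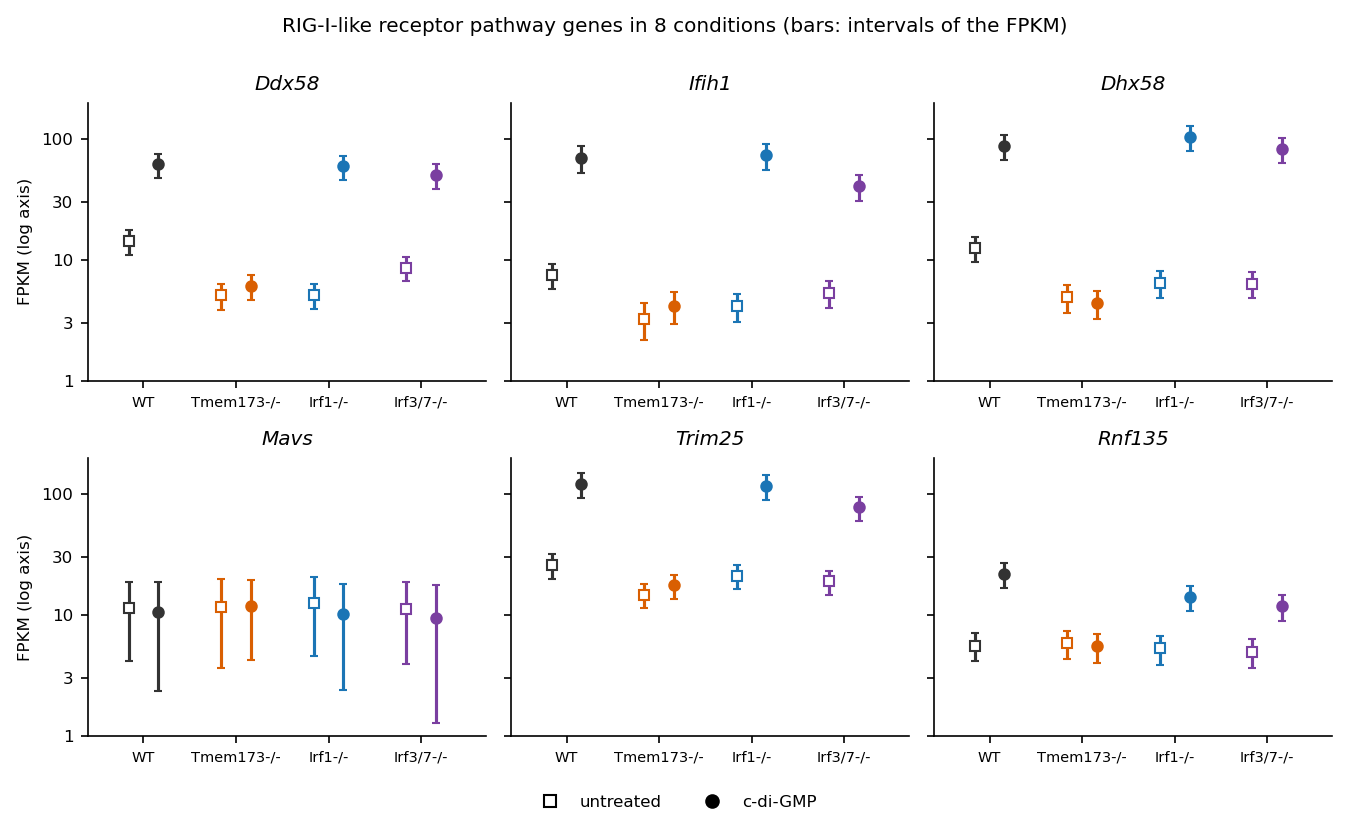
FPKM (log axis) of the 6 members in 4 genotypes, untreated (open squares) and with c-di-GMP (filled circles); each point is the authors' pooled value and each bar their interval. Every member but Mavs rises with c-di-GMP in WT, Irf1-/- and Irf3/7-/- cells and stays near its untreated level in Tmem173-/- cells, and the bars of Mavs overlap throughout.

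Some proportions between the receptors shifted as they rose, but in Irf1-/- cells neither ratio to Ddx58 had separate intervals. The 3 receptors summed to 34.4 FPKM in untreated WT cells and 219 in treated ones, or 3.01 and 20.6 times the level of Mavs. The intervals of Mavs were wide, at 4.14 to 18.7 FPKM untreated and 2.35 to 18.8 treated, and no interval was computed for these ratios. Ddx58 made up 41.6% of the untreated sum and 28.2% of the treated sum, whereas Ifih1 went from 21.9% to 31.9%. The ratio of Ifih1 to Ddx58 was 0.526 (0.381 to 0.727) untreated and 1.13 (0.804 to 1.59) treated in WT cells, 2 intervals that did not overlap. In Irf1-/- cells this ratio was 0.808 and 1.23, and in the cells labelled Irf3/7-/- 0.620 and 0.808, each pair with overlapping intervals. The ratio of Dhx58 to Ddx58 was 0.741 (0.531 to 1.03) untreated and 1.65 (1.19 to 2.29) treated in the cells labelled Irf3/7-/-, which did not overlap, and 0.880 and 1.42 in WT cells, which did. It was 1.27 (0.901 to 1.78) untreated and 1.74 (1.26 to 2.42) treated in Irf1-/- cells, which also overlapped. Between the ligases, Trim25 was at 4.64 times the level of Rnf135 in untreated and 5.57 times in treated WT cells, with overlapping intervals. In Irf1-/- cells this ratio was 3.97 (2.80 to 5.63) untreated and 8.29 (5.94 to 11.6) treated, which did not overlap, and in the cells labelled Irf3/7-/- it was 3.81 and 6.53, which did.

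The response of each knockout was read next. In Tmem173-/- cells, which lack STING, none of the 6 members was called in either direction, and 0.0552% of the 10867 genes tested were. The log2 changes of the members ran from -0.16 for Dhx58 to 0.35 for Ifih1. In Irf1-/- cells the same 5 members were called higher as in WT cells, against 9.67% of the 11164 genes tested. Their log2 changes were 3.51 for Ddx58 (3.04 to 3.98), 4.11 for Ifih1 (3.60 to 4.62), 3.97 for Dhx58 (3.49 to 4.46), 2.47 for Trim25 (2.01 to 2.94) and 1.40 for Rnf135 (0.89 to 1.91). In the cells labelled Irf3/7-/- these 5 were again called higher, against 10.2% of 11283 genes tested. There the log2 changes were 2.53 for Ddx58 (2.07 to 2.99), 2.90 for Ifih1 (2.41 to 3.40), 3.68 for Dhx58 (3.19 to 4.16), 2.02 for Trim25 (1.56 to 2.48) and 1.23 for Rnf135 (0.72 to 1.74). Rnf135 thus had the smallest rise of the 5 in each of the 3 responding genotypes.

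**Figure D2:**
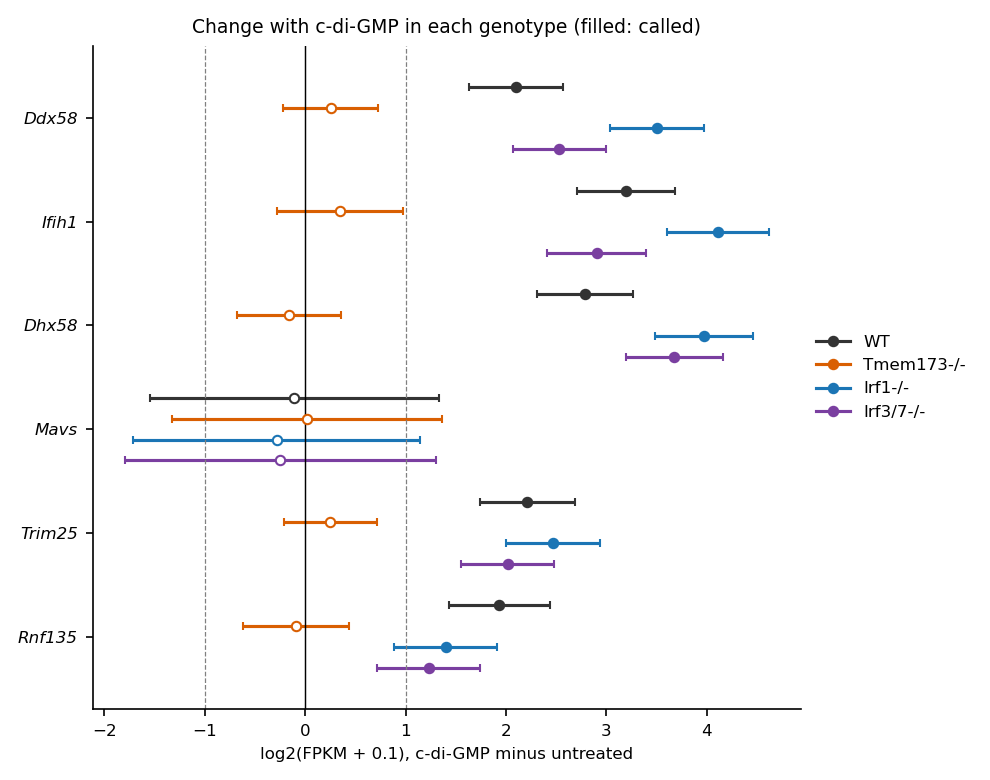
Difference in log2(FPKM + 0.1) between c-di-GMP and untreated cells for each member in each genotype, with intervals propagated from the authors' FPKM intervals; filled points were called, and dashed lines mark a 2-fold change. The 3 receptors reach 3.51 to 4.11 in Irf1-/- cells and lie between -0.16 and 0.35 in Tmem173-/- cells.

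Whether a response differed between genotypes was computed from the difference of the log2 changes, with a z value from the 4 intervals and a Benjamini-Hochberg q over all genes. These q values rest on the width of the deposited intervals and not on a spread between replicates, and the 3 differences share the WT cells. The rise was smaller in Tmem173-/- than in WT cells for all 5 members that responded, and 9.87% of 11493 genes passed in that direction. The difference was -2.94 for Dhx58 (q = 1.9e-14), -2.85 for Ifih1 (q = 1.1e-10), -2.03 for Rnf135 (q = 1.1e-06), -1.96 for Trim25 (q = 1.7e-07) and -1.85 for Ddx58 (q = 1.2e-06).

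In Irf1-/- cells the rise was larger than in WT cells for 2 members, where 1.3% of 11469 genes passed in that direction. The difference was 1.41 for Ddx58, with an interval of 0.75 to 2.07 and q = 0.0021, and 1.19 for Dhx58, with an interval of 0.51 to 1.87 and q = 0.027. Ifih1 had a difference of 0.92 (0.21 to 1.62) that did not pass, at q = 0.25. The larger rises came with lower untreated levels: the treated level of Ddx58 was 59.2 FPKM in Irf1-/- and 61.6 in WT cells, and the untreated levels were 5.11 and 14.3.

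None of the 6 members passed for Irf3/7-/- against WT cells, where 3.47% of 11513 genes did. The nearest were Dhx58, with a larger rise by 0.89 (0.21 to 1.57; q = 0.19), and Rnf135, with a smaller one, at -0.70 (-1.42 to 0.01; q = 0.57). The intervals of Trim25 (-0.85 to 0.47) and Ifih1 (-0.99 to 0.40) include a rise smaller than in WT cells by up to 0.85 and 0.99 on the log2 scale.

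Knockout and WT cells were then compared at the same treatment. After c-di-GMP, 5 of 6 members were called lower in Tmem173-/- than in WT cells, against 13.5% of the 11318 genes tested. Dhx58 was 19.5-fold lower (log2 difference -4.28), Ifih1 16.3-fold (-4.03), Ddx58 9.91-fold (-3.31), Trim25 6.84-fold (-2.77) and Rnf135 3.88-fold (-1.96). The T and NK cell marker sum given above was also lower in these cells, and that of neutrophils higher.

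No member was called in treated Irf1-/- against treated WT cells, where 7.56% of 11079 genes were. The receptors differed by -0.06 to 0.24 on the log2 scale and Trim25 by -0.04. Rnf135 had the largest difference, -0.61 with an interval of -1.09 to -0.13, and its FPKM intervals overlapped. The receptors lay within 1.18-fold of the WT level. The T and NK cell marker sum, most of it Gzma, was at 15.4 FPKM in these Irf1-/- cells and 412 in the WT cells. Ifng, the gene of type II interferon, was at 25.5 FPKM in treated Irf1-/- and 299 in treated WT cells. Whether the marker sum or Ifng bears on the receptor levels was not tested.

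No member was called in the treated cells labelled Irf3/7-/- against treated WT cells either, where 7.3% of 11209 genes were. Rnf135 was 1.82-fold lower (log2 difference -0.86, interval -1.35 to -0.38) and Ifih1 1.72-fold lower (-0.78, -1.29 to -0.28), both with FPKM intervals that did not overlap but below the 2-fold threshold. Trim25 differed by -0.64 (-1.11 to -0.17) with overlapping FPKM intervals, Ddx58 by -0.30 and Dhx58 by -0.08. The study lists Trim25, Ifih1, Rnf135 and Dhx58 among genes significantly lower in Irf3/7-/- BMDCs, by its own calls. That list was drawn up on these same libraries, so their direction here is no independent evidence. By the rule used here none of these genes was called, and the interval of Dhx58 was -0.55 to 0.40. In this comparison Ifng was higher in the cells labelled Irf3/7-/-, at 1155 FPKM against 299, as was Gzma, a granzyme of cytotoxic lymphocytes, at 900 against 329 FPKM.

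Between the treated knockouts, no member was called in the cells labelled Irf3/7-/- against Irf1-/- cells, where 9.84% of 11235 genes were. Ifih1 was 1.80-fold lower in the former, at -0.85 on the log2 scale (-1.35 to -0.35), with FPKM intervals apart. The other 5 differed by -0.60 to -0.11 and had overlapping intervals.

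Untreated cells differed as well, and here all differences with separate intervals were in receptors and Trim25. In untreated Tmem173-/- against untreated WT cells 3 of 6 members were called lower, against 5.95% of 11101 genes: Ddx58 (-1.46, interval -1.94 to -0.99), Dhx58 (-1.34, -1.84 to -0.84) and Ifih1 (-1.18, -1.75 to -0.61). Trim25 was 1.76-fold lower with intervals apart and was not called. In untreated Irf1-/- cells only Ddx58 was called lower, at -1.46, where 3.52% of 11017 genes were; Dhx58 (-0.95) and Ifih1 (-0.85) had separate intervals below the threshold. In the untreated cells labelled Irf3/7-/- no member was called, and 2.04% of 11004 genes were; Dhx58 (-0.97) and Ddx58 (-0.73) had separate intervals. Rnf135 differed by -0.16 to 0.07 in the 3 comparisons.

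These untreated differences went together with those of other interferon-induced genes. Of 16 such reference genes, among them Ifit1, Mx1 and Isg15, 14 were called lower in untreated Tmem173-/-, 10 in Irf1-/- and 6 in Irf3/7-/- than in untreated WT cells, with median log2 differences of -2.30, -1.50 and -0.83. Of all genes tested, 5.95%, 3.52% and 0.863% were called lower there. That list was chosen with earlier results of these data known, so the counts describe it and are no test. The untreated WT cells are shared by the 3 comparisons. With untreated Irf1-/- or Irf3/7-/- cells in place of untreated WT cells, an alternative chosen after seeing the data, the log2 change of treated WT cells was 3.56 or 2.83 for Ddx58 instead of 2.10, and 2.01 or 2.10 for Rnf135 instead of 1.93; the same number of members, 5, was called higher.

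**Figure D3:**
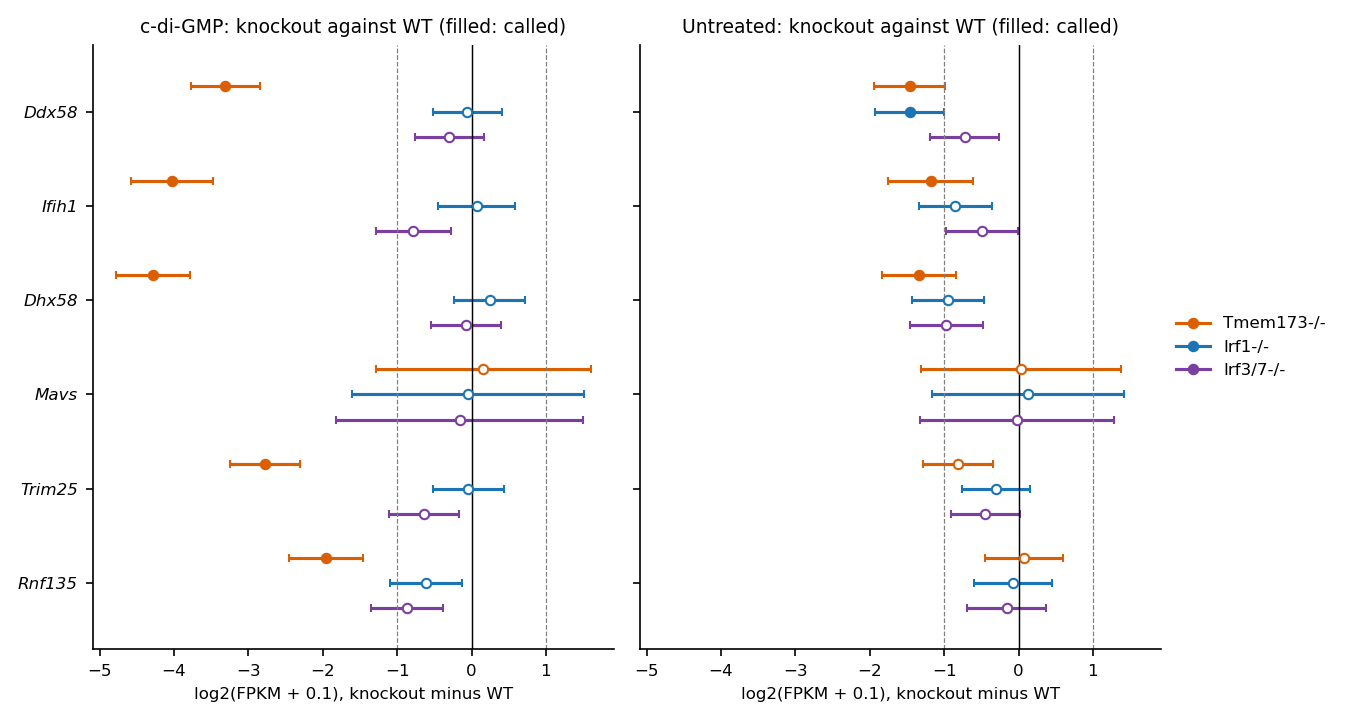
Difference in log2(FPKM + 0.1) between each knockout and WT cells, with c-di-GMP (left) and untreated (right); bars are propagated intervals, filled points were called, and dashed lines mark 2-fold. With c-di-GMP only Tmem173-/- points are filled, and untreated the filled points are the 3 receptors in Tmem173-/- and Ddx58 in Irf1-/- cells.

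Proteins that act with the receptors were read from a fixed list. Of 14 cofactors and activators, 13 could be tested in WT cells, and 3 were called higher and none lower with c-di-GMP, beside 10.5% and 9.96% of all genes; the median log2 change was 0.11. Oasl1 had the largest rise, from 8.92 to 911 FPKM (log2 change 6.66). Its human relative OASL enhances RIG-I signalling, while mouse Oasl1 is known as a translational repressor of Irf7, so it does not simply fit the name of the list. Ddx60, a helicase reported as a cofactor of RIG-I, went from 2.93 to 34.1 FPKM (3.50), and Zc3hav1, the zinc finger antiviral protein, from 37.8 to 104 FPKM (1.46). The other 10, among them the 14-3-3 proteins Ywhae and Ywhah and the phosphatases Ppp1ca and Ppp1cc, lay between -0.35 and 0.43. In the treated cells labelled Irf3/7-/- Oasl1 was at 237 FPKM and was the only gene of this list called lower than in treated WT cells. Of all genes tested, 2.69% were called lower there.

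All 24 genes of the signalling chain below MAVS could be tested in WT cells, and 4 were called higher and none lower, beside 10.5% and 9.96% of all genes; the median log2 change was 0.36. Irf7, the interferon regulatory factor that amplifies interferon production, went from 15.2 to 687 FPKM (log2 change 5.49). Traf6, an adaptor ligase, rose from 16.4 to 37.0 FPKM (1.17), and Tbk1, the kinase of Irf3, from 25.8 to 56.9 FPKM (1.14). Tank, a TBK1-binding scaffold, was the remaining one (1.13). Irf3 was at 20.0 and 15.8 FPKM (-0.33), and like it 19 others were not called. In Tmem173-/- cells none of the 24 was called, beside 0.0552% of all genes tested. Apart from Irf7, whose gene is targeted there, none of the 24 was called lower in the treated cells labelled Irf3/7-/- than in treated WT cells, beside 2.69% of all genes tested.

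Negative regulators of the pathway were a further list. Of 28 genes 27 were tested, and 5 were called higher and none lower, beside 10.5% and 9.96% of all genes; the median log2 change was 0.09. March5, a mitochondrial ligase that removes aggregated MAVS, went from 41.1 to 159 FPKM (log2 change 1.95), and Tnfaip3, the ubiquitin-editing enzyme A20, from 34.4 to 114 FPKM (1.73). Casp12 went from 0.488 to 2.24 FPKM (1.99), a low level; caspase-12 is reported to be needed for ubiquitination of RIG-I by TRIM25, so it does not do what the name of the list says. Tax1bp1 and Adar were the others, at 1.43 and 1.08. Casp12 was also the single gene of the list called in treated Irf1-/- (0.0102 FPKM) and in treated Irf3/7-/- cells (0.567 FPKM) against treated WT cells, lower in both. Of all genes tested, 7.56% and 7.3% were called in these comparisons. Of the 16 interferon-induced reference genes 14 were called higher in WT cells, with a median log2 change of 3.19, and 16 and 14 in Irf1-/- and Irf3/7-/- cells. Of all genes tested, 10.5%, 9.67% and 10.2% were called higher in WT, Irf1-/- and Irf3/7-/- cells.

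**Figure D4:**
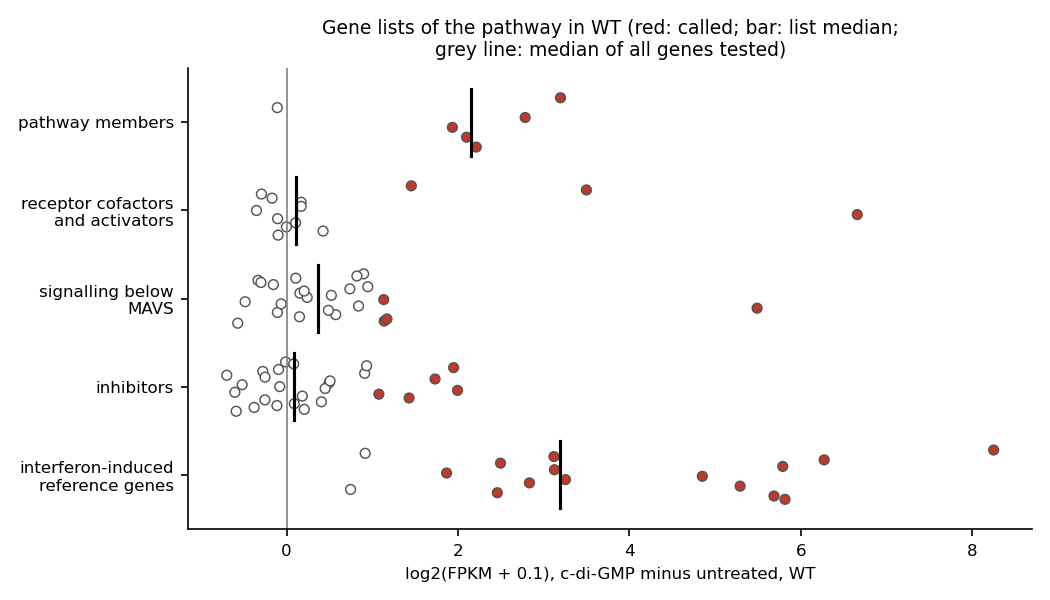
Difference in log2(FPKM + 0.1) between c-di-GMP and untreated WT cells for each tested gene of the members and 4 lists; red points were called, the black bar is the median of a list and the grey line that of all genes tested. The medians are 2.16 for the members, 0.11, 0.36 and 0.09 for the activators, the signalling chain and the inhibitors, and 3.19 for the interferon-induced genes.

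Type I interferons, the output of the pathway, were low. Of 15 listed genes 13 were in the table, and 2 reached 1 FPKM. Ifnb1, the gene of interferon beta, was listed at 0 in untreated WT cells and was at 2.93 FPKM with c-di-GMP, and at 3.53 in treated Irf1-/- cells, 22.6 in the treated cells labelled Irf3/7-/- and 0.0474 in treated Tmem173-/- cells. Ifna4, an interferon alpha gene, was listed at 0 in untreated WT cells, and at 3.53 in treated WT, 9.37 in treated Irf1-/- and 0.0484 in treated Irf3/7-/- cells. In the treated cells labelled Irf3/7-/-, in which the receptors rose, Ifnb1 was called higher and Ifna4 lower than in treated WT cells.

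The receptors were set beside other genes of their protein fold. Of 54 genes with a Ddx or Dhx symbol, 51 could be tested in WT cells. Apart from Ddx58 and Dhx58, only Ddx60 of 49 was called higher with c-di-GMP, beside 10.5% of all genes tested. Called lower were 6 genes, Ddx21, Ddx51, Ddx11, Ddx18, Ddx31 and Ddx39, beside 9.96% of all genes tested, a share near that of the family. Ddx21, a helicase of ribosomal RNA processing, went from 50.1 to 20.0 FPKM in WT cells (log2 change -1.32) and from 38.6 to 44.7 in Tmem173-/- cells. The median log2 change of the 49 was -0.25. Ddx60 was lower in all 3 untreated knockouts than in untreated WT cells (2.93 FPKM), at 0.541 in Tmem173-/-, 0.468 in Irf1-/- and 1.18 in Irf3/7-/- cells, and each difference was called. Treated Irf1-/- and Irf3/7-/- cells held 18.3 and 18.6 FPKM of Ddx60 against 34.1 in WT cells.

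**Figure D5:**
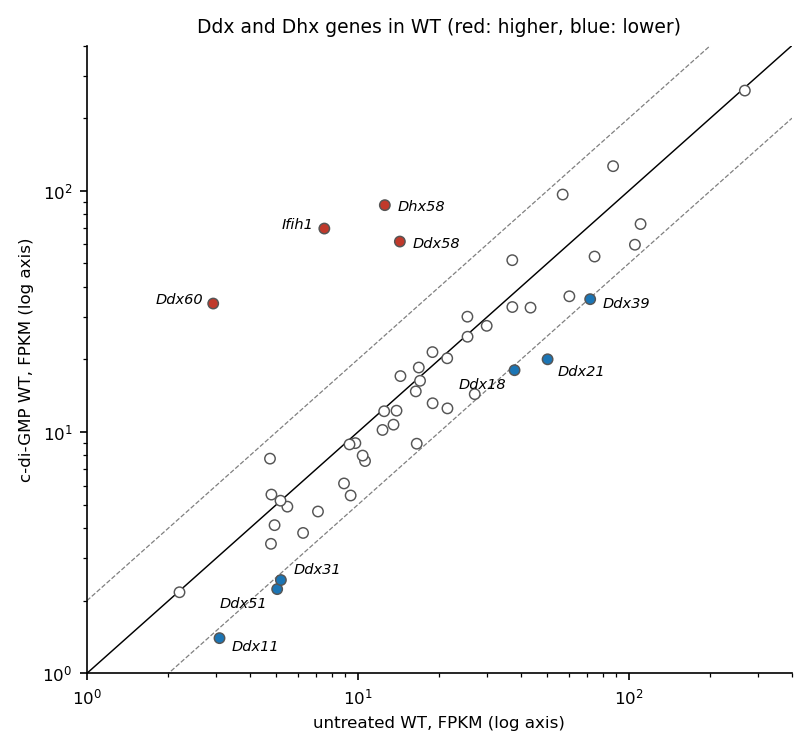
FPKM of the 51 tested Ddx and Dhx genes and Ifih1 in untreated (x axis) and c-di-GMP-treated (y axis) WT cells, both axes logarithmic; the solid line marks equal values, dashed lines a 2-fold difference, and coloured points were called. Ddx58, Ifih1, Dhx58 and Ddx60 lie above the band, 6 genes lie below it, and the rest lie within it or were not called.

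The genes whose profile was most like that of a member were ranked by Pearson's r of log2(FPKM + 0.1) over the 8 conditions, among 7381 genes at 10 FPKM or more in a condition. For Ddx58 they were Slfn8 (r = 0.997), Ddx60 (0.995) and Ccdc25 (0.995). For Dhx58 they were Ifit3 (0.998), Pydc4 (0.997) and Ifit1 (0.996). Trim25 ran closest to Car13 (0.999), Ifih1 (0.996) and Polr3c (0.996), and Rnf135 to Rnf215 (0.997), Atxn7l1 (0.990) and Oraov1 (0.988). With a pseudocount of 1 FPKM, 8 of the 15 nearest pairs of the 5 members that rose stayed among the nearest; for Dhx58 only Ifit1 did, and for Rnf135 only Rnf215. Among the members r was 0.976 to 0.996 between the receptors and Trim25, and 0.918 to 0.955 between each of these and Rnf135. Mavs, whose intervals overlapped in all conditions, had r of -0.89 to -0.74 with the others. These values describe 8 points that share their libraries and are mostly set by the difference between treated and untreated cells.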

How the data were processed

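RNA-seq libraries were made with a stranded mRNA kit and summarised by the authors with Cuffdiff (version 1.06 per the submitters' processing notes) as 1 deposited FPKM per gene and condition, pooled over 2 libraries, with the bounds of an interval taken here as a 95% one. The notes name mm9, but the loci matched GRCm38: 21454 of 21681 genes with a unique GENCODE M21 name overlapped it. No source used here names the aligner or annotation. The treated Tmem173-/- column has an unclear suffix and was assigned by comparing its ratio to treated WT with a supplementary column of the study. A further 3 value columns matched no listed sample and were not used.

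A pseudocount of 0.1 FPKM was added before logs. Genes were tested with at least 1 FPKM in 1 of the compared conditions and status OK in both, and called at over 2-fold with intervals apart. Intervals of log2 differences were propagated on the log scale with a multiplier of 1.96, and differences of changes passed at q below 0.05 and over 1 on the log2 scale. Scripts were tested on simulated data and ran in Python 3.11.15 with pandas 2.3.3, numpy 2.4.6, scipy 1.17.1 and matplotlib 3.10.9.

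The members and lists were chosen with earlier results of these data known. Genes named outside the members were, per list, the 3 largest called rises and falls in WT cells with c-di-GMP, the called Ddx and Dhx genes, the 3 nearest profiles of the members called in WT cells (those of Ifih1, and a further promoter motif that was searched, are not reported here) and the targeted genes; Tank, Tax1bp1, Adar, Ifng, Gzma and uncalled genes of the lists were named after their values were seen. Alternatives changed the pseudocount, the minimum, the fold, the centring and the use of the intervals.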

Additional observations from a re-analysis of the deposited data

Results flagged for a closer look

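The change with c-di-GMP differed between a knockout and WT cells for 7 combinations of gene and genotype, by the z value of the difference over the deposited intervals. In Tmem173-/- cells the log2 change was smaller than in WT cells by the following differences: -1.85 for Ddx58, -2.85 for Ifih1, -2.94 for Dhx58, -1.96 for Trim25 and -2.03 for Rnf135. In Irf1-/- cells it was larger, by 1.41 for Ddx58 and 1.19 for Dhx58. Of all genes tested, 9.87% passed with a smaller change in Tmem173-/- cells and 1.3% with a larger one in Irf1-/- cells. No member passed for Irf3/7-/- cells, where 3.47% of all genes tested did. The responses were also expressed as a share of the WT log2 change. In Tmem173-/- cells they were 12.1% for Ddx58, 10.9% for Ifih1, 11.3% for Trim25, -5.7% for Dhx58 and -4.9% for Rnf135. None of these changes within Tmem173-/- cells was called, and the untreated and treated FPKM intervals overlapped for each gene. In Irf1-/- cells the shares were 167% for Ddx58 and 143% for Dhx58. All 7 use the same WT cells, so they are not independent of one another. No group had enough separate values to look for a sample far from the others.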

How the results depend on the processing

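No paired analysis was possible because the deposited values were pooled over the libraries of a condition and carry no replicate numbers, and for the same reason no library could be left out. Of 101 recounts of called members under the alternatives, 95 stayed within 1.5 times the value reported and 6 did not, and these 6 came from the fold threshold. With a threshold of 1.5-fold, 2 members were called lower in treated Irf3/7-/- against treated WT cells instead of 0 (Ifih1 and Rnf135), 1 in treated Irf3/7-/- against treated Irf1-/- cells instead of 0 (Ifih1), 3 in untreated Irf1-/- against untreated WT cells instead of 1 (Ddx58, Ifih1 and Dhx58) and 2 in untreated Irf3/7-/- against untreated WT cells instead of 0 (Ddx58 and Dhx58). At 1.5-fold, 10.6%, 13.7%, 6.41% and 3.18% of all genes tested were called in either direction in these comparisons, in the order given. With a threshold of 4-fold, the count was 0 in untreated Tmem173-/- cells instead of 3 and 0 in untreated Irf1-/- cells instead of 1. There 3.8% and 1.6% of all genes tested were called in either direction. With a pseudocount of 1 FPKM Ifih1 was no longer called in untreated Tmem173-/- cells. All 15 recounts of members whose change differed from WT were as reported, and q for Dhx58 in Irf1-/- cells ranged from 0.027 to 0.039. No log2 change that had been called reversed its sign in the alternatives run.

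Counts over all genes moved more than those of the members, which sets how far the percentages given beside them can be read. In 26 of 101 recounts they moved by more than 1.5 times. With a threshold of 4-fold the count was 592 instead of 2291 within WT cells, 589 instead of 1952 within Irf1-/- cells, 500 instead of 2015 within Irf3/7-/- cells and 1174 instead of 2980 for treated Tmem173-/- against treated WT cells. Within Tmem173-/- cells it was 0 to 83 instead of 6. For the treated knockouts it was as low as 232 instead of 838 (Irf1-/-), 207 instead of 818 (Irf3/7-/-) and 381 instead of 1106 (Irf3/7-/- against Irf1-/-). For the untreated knockouts it was as low as 422 instead of 1221 (Tmem173-/-) and 176 instead of 527 (Irf1-/-), and 36 to 350 instead of 224 (Irf3/7-/-). Counts of called genes in the lists moved by more than 1.5 times in 49 of 303 recounts.

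Read depth is unknown, and the deposited intervals are the only error available. Their median half-width was about 25% of the value for genes at 10 FPKM or more in every condition. Whether the intervals hold the spread between animals was not tested. Mavs could not be resolved at all at a 2-fold change.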
